A study of Homo sapiens with 6 samples.

Results

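NRF2 targets and antioxidant defence genes were examined in DLD-1 colon cancer cells with and without the secreted Wnt inhibitor DKK1. The set was given as a list of 35 gene names that cover the NRF2 pathway and the enzymes that remove peroxides and superoxide. A gene counted as measured when at least 1 probe set of the array carried that gene symbol alone, and the probe set with the highest mean was kept. By this rule 33 of the 35 genes were measured, out of 18404 genes and 32321 probe sets in all, and PRDX5 and FTH1 were not analysed here. The members were divided by role into 5 regulators, 5 genes of glutathione synthesis and reduction, 3 thioredoxin genes, 9 peroxidases, 4 genes of the pentose phosphate pathway and malic enzyme, called the NADPH genes, 4 genes of quinone, haem and iron handling, and 3 genes for superoxide dismutases and catalase.

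DLD-1 is an established human colorectal adenocarcinoma line with mutated APC. The cells called DLD-1/DKK1 carried a doxycycline-inducible lentivirus with human DKK1 (V5-tagged) and a green fluorescent reporter, and DLD-1/Mock carried the lentivirus with no DKK1 gene. Expression was measured on 6 single-colour arrays, 1 for each of 3 dishes per group. Both groups had received doxycycline for a day, at a concentration that the labels write as 10 mg/ml and the methods in micrograms per ml, so an effect of the drug itself cannot be seen in this comparison. The sources used here do not say how many transductions lay behind the dishes or whether clones were picked, and p-values measure only the spread between dishes, which may be technical. DKK1 itself checked the labels, with log2 values of 5.01 to 5.74 on the DLD-1/Mock arrays and 12.30 to 12.38 on the DLD-1/DKK1 arrays.

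The 10 colon epithelium markers lay at percentiles 32.8 to 98.8 of brightness among all probe sets, with EPCAM at 98.7, CDH1 at 97.6 and CDX2 at 89.1, and with CDX1 at 55.7 and KRT20 at 32.8. Of these 10, CDH17 was higher at an unadjusted limma p under 0.05 (log2 fold change 0.18), against 4.02% of all probe sets. Leukocyte markers lay at percentiles 9.83 (PTPRC) to 56.6 (CD68), fibroblast markers at 7.09 (LUM) to 57.7 (COL1A1) and endothelial markers at 23.0 to 41.7. Of 6 measured leukocyte markers, 2 were lower at an unadjusted limma p under 0.05, CD68 (-0.26) and CD14 (-0.27), against 5.21% of all probe sets. CD68 and CD14 lay at percentiles 56.6 and 42.5, and genes at percentiles 50 to 60 and 0 to 50 had median log2 fold changes of -0.054 and -0.035. The summed linear level of the list was 406 to 437 in DLD-1/Mock and 362 to 378 in DLD-1/DKK1, while PTPRC differed by 0.0005. The part of these genes in the results was not tested. Fibroblast and endothelial markers had no member under that p in either direction, with summed linear levels of 374 to 441 and 182 to 206 in DLD-1/Mock against 368 to 392 and 178 to 186 in DLD-1/DKK1. Of the 6 arrays, Mock 2 was the least like the rest (r = 0.9953 to 0.9969 across probe sets, against at least 0.9973 for every other pair).

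NRF2, encoded by NFE2L2, is a transcription factor that KEAP1 marks for degradation in unstressed cells. When oxidants or electrophiles modify KEAP1, NRF2 accumulates, pairs with a small MAF protein such as MAFG or MAFF and binds antioxidant response elements, from which BACH1 can displace it. Its targets make glutathione, reduce thioredoxin, supply NADPH and store iron, and in the gut lining they meet oxidants from food, bile and bacteria. Most control of NRF2 acts on the protein, so its mRNA is an incomplete guide to its activity.

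The core letters of the antioxidant response element, TGACNNNGC, were searched on both strands in the 250 bases before the RefSeq start sites (GRCh38.p14). The stretches below belong to the members with a match that are described further on as glutathione, thioredoxin, peroxidase and NADPH genes. They are shown because this is the element through which NRF2 acts. Each is written in the direction of its gene with the matching letters in capitals, which read GCNNNGTCA where the match lies on the opposite strand.

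PGD, chr1:10398833-10398901, plus strand, match ending 193 bases before the start site: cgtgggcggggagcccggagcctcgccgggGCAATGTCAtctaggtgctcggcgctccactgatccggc

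GCLM, chr1:93909431-93909494, minus strand, match ending 26 bases before the start site: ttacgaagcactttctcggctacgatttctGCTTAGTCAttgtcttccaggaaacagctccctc

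GPX2, chr14:64942829-64942897, minus strand, match ending 114 bases before the start site: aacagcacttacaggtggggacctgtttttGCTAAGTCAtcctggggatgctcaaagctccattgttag

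TXNRD1, chr12:104215650-104215718, plus strand, match ending 91 bases before the first of 2 start sites with a match: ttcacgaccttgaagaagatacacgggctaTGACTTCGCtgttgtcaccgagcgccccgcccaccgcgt

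TXNRD1, chr12:104286900-104286968, plus strand, match ending 94 bases before the other start site: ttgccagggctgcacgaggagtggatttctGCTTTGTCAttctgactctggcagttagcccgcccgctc

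ME1, chr6:83431150-83431218, minus strand, match ending 129 bases before the start site: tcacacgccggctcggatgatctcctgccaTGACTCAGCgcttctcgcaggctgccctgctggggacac

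Matches were also present before the regulators KEAP1 and MAFF, so that 7 of the 26 measured members with a promoter entry had at least 1. Among all 27305 genes with a promoter entry the share was 13.2%. Of 39 member promoters 8 held the letters (20.5%), against 10.9% of all 35116 promoters in the table. The ME1 match contains TGACTCA, the letters bound by AP-1 factors, and the other matches of the members do not. The 7 members with a match had a median log2 fold change of 0.038 and the 19 without one of 0.064, and 3 and 9 of them, respectively, had DKK1 arrays that were each higher than every Mock array. Such a separation held for 7.91% of all probe sets and 15.6% of genes above percentile 60 of brightness. The letters are a description of these windows, and elements farther away were not looked for.

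The comparison asked which antioxidant genes differ between cells with and without DKK1. GPX3, the secreted glutathione peroxidase, fell to 0.692-fold of the DLD-1/Mock level (95% interval 0.633 to 0.756), and it was the member that passed the test. The glutathione genes GCLM and GCLC, the intestinal peroxidase GPX2 and several others had small positive log2 fold changes of 0.090 to 0.26 that did not pass. The NADPH genes had log2 fold changes of 0.020 to 0.038, and the 5 regulators of -0.00081 to 0.094. Over all 33 members the median log2 fold change was 0.064 (0.038 with the probe sets of a gene averaged), beside -0.0063 over all probe sets and 0.020 over the 9213 genes above percentile 60 of brightness, where 31 of the members lie.

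With limma and adjustment over all 32321 probe sets, 1 member was lower and 0 were higher at an adjusted p under 0.05, when 0.0495% and 0.0371% of all probe sets were called in these directions. At an unadjusted limma p under 0.05, 9 members were higher, against 4.02% of all probe sets and 7.15% of the genes above percentile 60, and 1 was lower, against 5.21% of all probe sets. The 9 became 5 without Mock 3 and 3 without the first or the second DLD-1/DKK1 array, and centring each array on its median raised them to 16. For 15 members the lowest DLD-1/DKK1 array exceeded the highest DLD-1/Mock array, where this held for 7.91% of all probe sets and 15.6% of the bright genes. The reverse held for 1 member, GPX3, and for 8.55% of all probe sets. A log2 fold change above 0 was found for 29 of the 33 members, against 46.9% of all probe sets and 61.7% of the bright genes. No test was made over the list, given how its members were chosen. The exact permutation test over 3 arrays against 3 cannot give less than 0.1, the value of each member whose groups did not overlap.

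**Figure D1:**
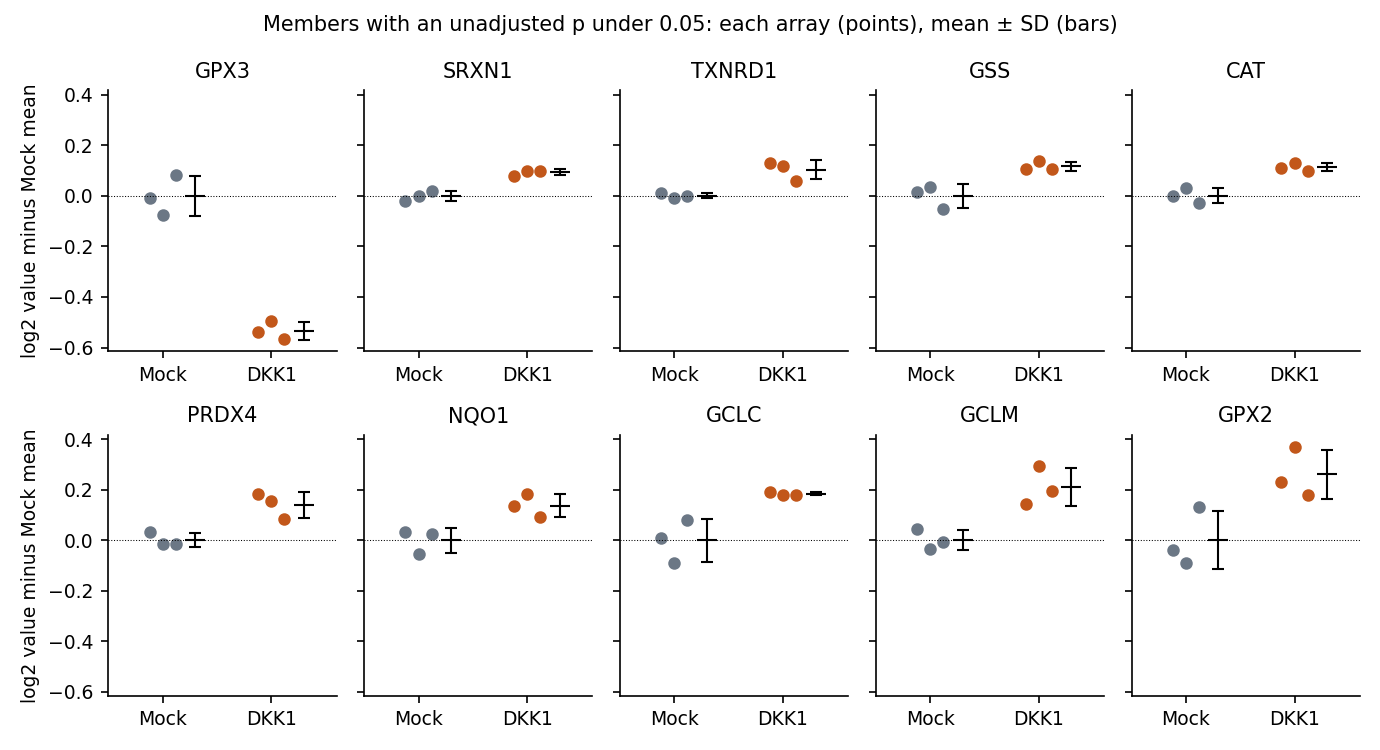
Log2 expression of the 10 members with an unadjusted limma p under 0.05, as the difference from the DLD-1/Mock mean (vertical axis), with a point for each array and a bar for the group mean ± SD (n = 3). GPX3 lies 0.53 below the DLD-1/Mock mean, and the other 9 genes lie 0.090 to 0.26 above it with no overlap between the groups.

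The peroxidases held the lowest and the highest log2 fold change of the set. GPX3, which is secreted and reduces peroxides outside the cell, read 7.18, 7.11 and 7.27 on the DLD-1/Mock arrays and 6.65, 6.69 and 6.62 on the DLD-1/DKK1 arrays. The groups were far apart compared with the SDs of 0.081 and 0.037. The log2 fold change was -0.53 with an SE of 0.05 and a limma adjusted p of 0.0438. In RNA from whole dishes, less transcript per cell and fewer cells with the transcript cannot be told apart. The call was lost when any one of the 6 arrays was left out (limma adjusted p = 0.0856 to 0.239), while the log2 fold change stayed between -0.57 and -0.49. After quantile normalisation the adjusted p was 0.0815 by limma. The probe set lay at percentile 51.4 of brightness, and this class of genes had a median log2 fold change of -0.054.

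GPX2, the glutathione peroxidase of the gut epithelium and an NRF2 target, read 7.99, 7.94 and 8.16 in DLD-1/Mock and 8.26, 8.40 and 8.21 in DLD-1/DKK1. Every DLD-1/DKK1 array was higher, but Mock 3 and the third DLD-1/DKK1 array differed by less than the SDs of 0.117 and 0.096. The log2 fold change was 0.26 (SE 0.08), the highest of the set, with an adjusted p of 0.465 in limma. Its promoter holds the match printed above. The other measured members with a match were GCLM (0.21), TXNRD1 (0.10), ME1 (0.038), PGD (0.037), MAFF (0.0081) and KEAP1 (-0.00081). The other glutathione peroxidases lay closer to 0, with 0.073 for the cytosolic GPX1 and -0.0088 for GPX4, which reduces lipid peroxides in membranes and whose interval ran from -0.094 to 0.077. A second GPX1 probe set, dimmer and more variable, had -0.019, so the 2 probe sets of GPX1 differ in sign and neither passed.

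Among the peroxiredoxins, which reduce hydrogen peroxide, PRDX4 of the endoplasmic reticulum stood highest. It read 9.50, 9.45 and 9.45 in DLD-1/Mock and 9.65, 9.62 and 9.55 in DLD-1/DKK1, with no overlap. The log2 fold change was 0.14 with a 95% interval of 0.032 to 0.24 (limma adjusted p = 0.483). The mitochondrial PRDX3 and the cytosolic PRDX1 had 0.064 and 0.063, again with separate groups, while PRDX6 (0.023) and PRDX2 (0.010) overlapped. Taking the 9 measured peroxidases together, 7 were above 0 and the median was 0.063, while their mean was 0.010. That median was 0.037 without Mock 2 and 0.027 with the probe sets of a gene averaged. The shares above 0 were 46.9% of all probe sets and 61.7% of the bright genes, with 7.91% and 15.6% higher without overlap.

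The glutathione genes had the highest median of the 7 subgroups, 0.12, with all 5 members above 0 and 4 of 5 without overlap between the groups. Of the bright genes, 61.7% were above 0 and 15.6% had each DLD-1/DKK1 array above every DLD-1/Mock array. GCLM, the modifier subunit of glutamate-cysteine ligase, the rate-limiting enzyme of glutathione synthesis, read 8.67, 8.59 and 8.62 in DLD-1/Mock and 8.77, 8.92 and 8.82 in DLD-1/DKK1. This is a level 1.15-fold higher (95% interval 1.06 to 1.26; limma adjusted p = 0.400), and its promoter holds a match close to the start site. GCLC, the catalytic subunit of the same enzyme, read 10.45, 10.35 and 10.52 against 10.63, 10.62 and 10.62, or 1.14-fold higher (1.04 to 1.24; limma adjusted p = 0.452). The DLD-1/DKK1 arrays of GCLC were nearly alike, and most of its spread came from the DLD-1/Mock arrays, whose SD was 0.087.

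GSS, which joins glycine in the last step of the synthesis, read 10.88, 10.90 and 10.81 in DLD-1/Mock and 10.97, 11.00 and 10.97 in DLD-1/DKK1. Its log2 fold change was 0.12 with a 95% interval of 0.022 to 0.22 (limma adjusted p = 0.499). The groups did not overlap, and the estimate was below those of both ligase subunits. GSR, which reduces oxidised glutathione with NADPH, had 0.078 and separate groups. SLC7A11, the cystine importer that supplies cysteine, had 0.075 and overlapping groups, with Mock 3 at 10.39 inside the DLD-1/DKK1 range of 10.35 to 10.41.

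In the thioredoxin subgroup all 3 genes were above 0, without overlap between the groups and within a narrow range of 0.086 to 0.10. The shares of bright genes were 61.7% above 0 and 15.6% higher without overlap. TXNRD1, the cytosolic thioredoxin reductase, read 10.31, 10.29 and 10.30 in DLD-1/Mock and 10.43, 10.42 and 10.36 in DLD-1/DKK1 (limma adjusted p = 0.524). SRXN1, which repairs overoxidised peroxiredoxins, read 9.91, 9.93 and 9.95 against 10.01, 10.03 and 10.03 (limma adjusted p = 0.534). The intervals of both genes began just above 0, at 0.0081 and 0.0022. TXN, thioredoxin itself, had a log2 fold change of 0.086 with an interval that included 0 (-0.0054 to 0.18).

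The 4 NADPH genes had a narrow range. PGD of the oxidative pentose phosphate pathway had 0.037 (95% interval -0.054 to 0.13), and ME1, malic enzyme, had 0.038 (-0.057 to 0.13). TALDO1 and TKT, which carry out the sugar rearrangements of the non-oxidative branch, had 0.023 (-0.069 to 0.12) and 0.020 (-0.069 to 0.11). None of the 4 had separate groups, while 15.6% of the bright genes had each DLD-1/DKK1 array above every DLD-1/Mock array. The upper limits correspond to at most 1.10-fold. The median of this subgroup was 0.030 (0.0099 after cyclic loess normalisation) against 0.12 for the glutathione genes and 0.090 for the thioredoxin genes, a difference between subgroups that was not tested.

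**Figure D2:**
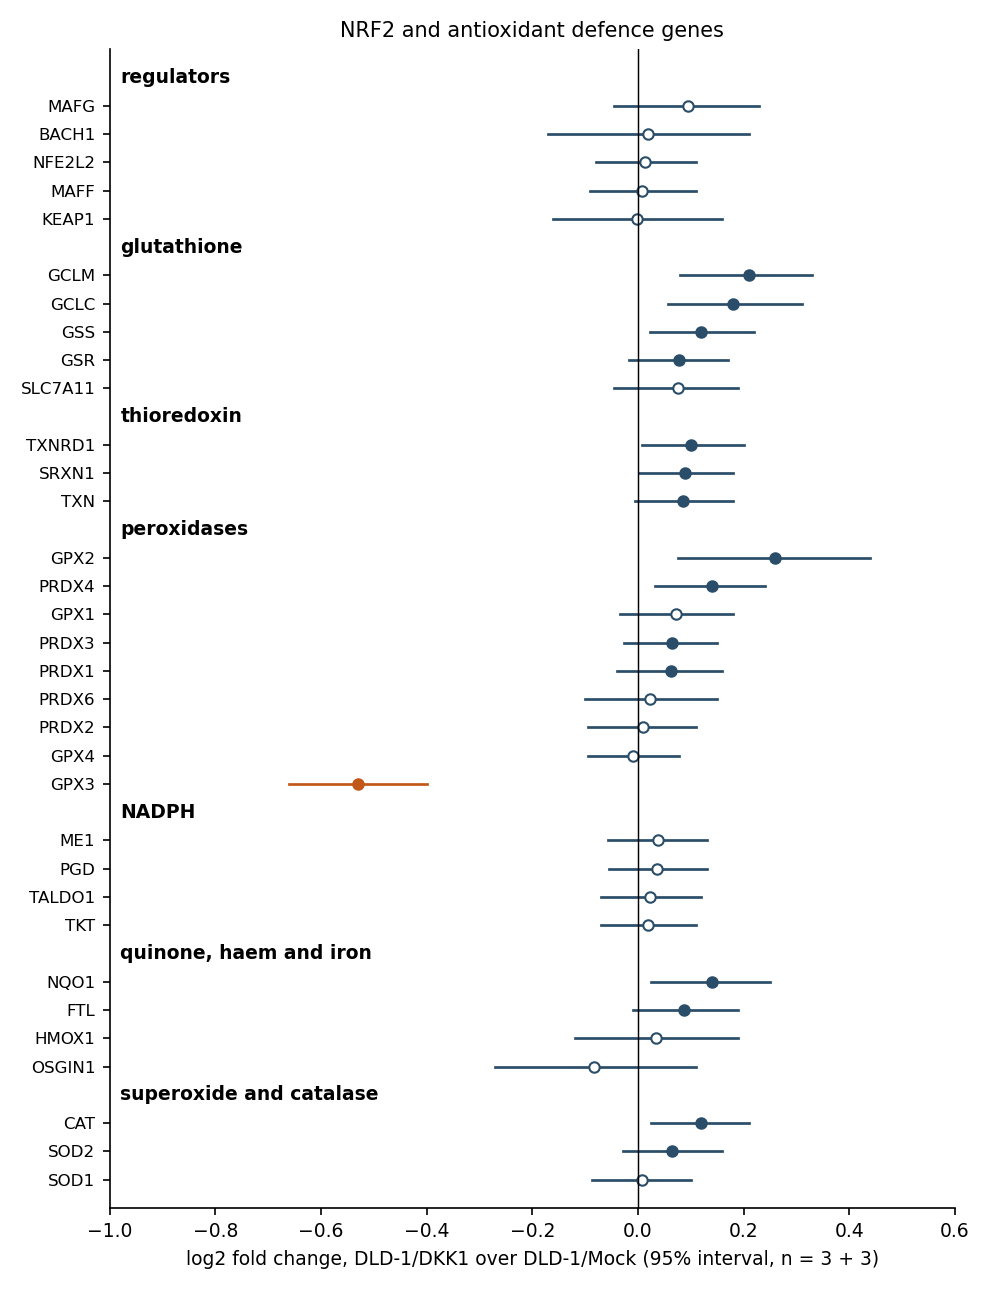
The 33 measured members by role, with the log2 fold change of the DKK1 cells over the Mock cells on the horizontal axis, points at the limma estimate and lines for its 95% interval (3 arrays per group). Filled points mark genes whose groups do not overlap, and orange marks GPX3 at -0.53, the member with an adjusted p under 0.05.

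NQO1, a quinone reductase and a standard NRF2 target, read 11.94, 11.85 and 11.93 in DLD-1/Mock and 12.04, 12.09 and 12.00 in DLD-1/DKK1. Its level was 1.10-fold higher (95% interval 1.02 to 1.19; limma adjusted p = 0.499) with no overlap between the groups. FTL, the ferritin light chain that stores iron, had 0.088 and separate groups. HMOX1, the haem oxygenase that responds strongly to NRF2 and is repressed by BACH1, had 0.034 with an interval of -0.12 to 0.19, and its highest value, 8.70, and its next, 8.61, belonged to different groups. OSGIN1, an oxidative stress-induced growth inhibitor, was the member with the lowest estimate after GPX3 at -0.083 (-0.27 to 0.11). Separate groups were thus found for NQO1 and FTL, neither of which passed, and not for HMOX1 or OSGIN1. Of the bright genes, 15.6% were higher without overlap.

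CAT, the peroxisomal catalase, read 10.89, 10.92 and 10.86 in DLD-1/Mock and 11.00, 11.02 and 10.99 in DLD-1/DKK1. The groups did not overlap, and the log2 fold change was 0.12 with a 95% interval of 0.024 to 0.21 (limma adjusted p = 0.489). The mitochondrial superoxide dismutase SOD2, a target of NF-kB as well, had 0.064 with separate groups. The cytosolic SOD1 had 0.0074 with an interval of -0.087 to 0.10. Higher values without overlap were found for 15.6% of the bright genes.

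The regulators had a median of 0.014, which was 0.0033 without Mock 2 and 0.030 without Mock 1. None of the 5 had separate groups, where 7.91% of all probe sets and 15.6% of the bright genes were higher without overlap. NFE2L2 read 11.10, 11.04 and 11.04 in DLD-1/Mock and 11.10, 11.07 and 11.06 in DLD-1/DKK1, a log2 fold change of 0.014 with an interval of -0.080 to 0.11. KEAP1 had -0.00081 (-0.16 to 0.16) and BACH1 had 0.020 (-0.17 to 0.21), both with wider intervals than NFE2L2. MAFF had 0.0081. For MAFG the 3 probe sets differed in sign, with 0.094 for the brightest and -0.046 and -0.16 for the others, so no direction is given for this gene.

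**Figure D3:**
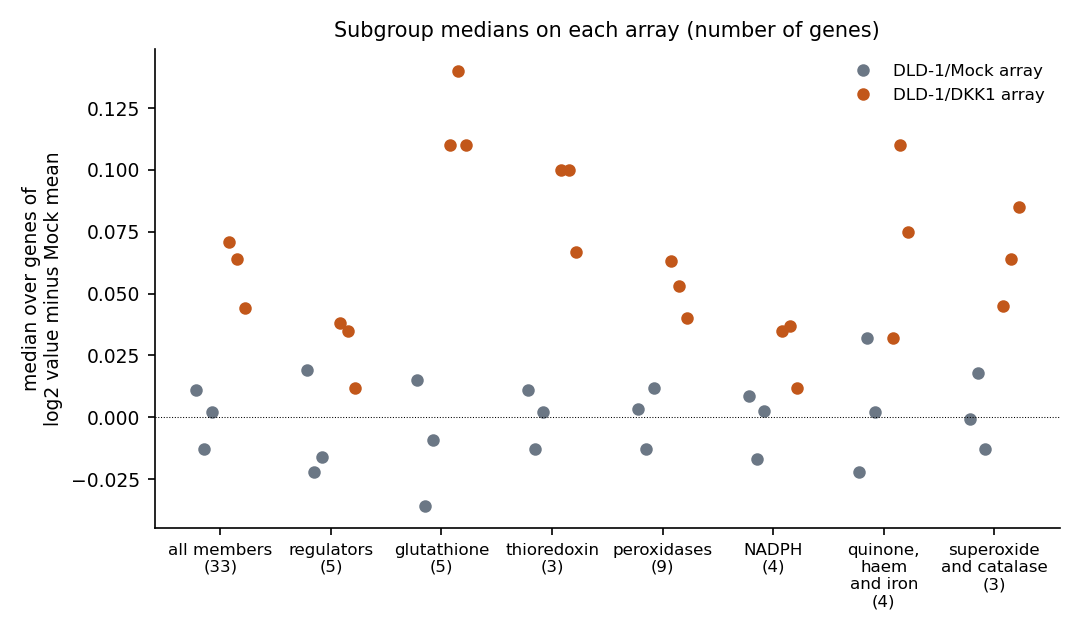
Median over the genes of each subgroup of the log2 value minus the DLD-1/Mock mean (vertical axis), with a point for each array and the number of genes in brackets. Over all 33 members DKK1 arrays range from 0.044 to 0.071 and Mock arrays from -0.013 to 0.011, and the glutathione genes lie highest at 0.11 to 0.14.

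Array by array, the members' median relative to the DLD-1/Mock mean was 0.011, -0.013 and 0.0020 for DLD-1/Mock and 0.071, 0.064 and 0.044 for DLD-1/DKK1. Each of the 3 DLD-1/DKK1 arrays was thus above each DLD-1/Mock array, with the third the closest to them. The medians of whole arrays ranged from 6.76 to 6.86, and their part in these small differences was not tested. The glutathione genes stood at 0.015, -0.036 and -0.0091 in DLD-1/Mock and at 0.11, 0.14 and 0.11 in DLD-1/DKK1, and the NADPH genes at 0.0086, -0.017 and 0.0027 and at 0.035, 0.037 and 0.012. The regulators overlapped between the groups, and for the quinone, haem and iron genes the highest DLD-1/Mock and the lowest DLD-1/DKK1 array both stood at 0.032. Mock 2 had the lowest median over all members, and without it the median log2 fold change was 0.067, while 26 of the 33 members were above 0.

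Fold changes across the array ran with brightness, and most members are bright. The median log2 fold change was -0.035 for genes between percentiles 0 and 50 and -0.054 between percentiles 50 and 60, and it was 0.024, 0.028, 0.021 and 0.017 for genes between percentiles 70 and 80, 80 and 90, 90 and 95 and above 95. The 2 members between percentiles 50 and 60, GPX3 and MAFF, had a median of -0.26, below that of the genes there, and the 4 between 60 and 70 had 0.027 against 0.0011. In the 4 brighter classes the members had medians of 0.094 (n = 5), 0.082 (n = 6), 0.12 (n = 3) and 0.038 (n = 13). The members' median thus lay above that of the genes in the 5 classes above percentile 60 and below it in the class under it. In that lower class GPX3 (-0.53) lay below the genes' median of -0.054 and MAFF (0.0081) above it. After cyclic loess normalisation, which removes much of the trend, the median was 0.048 for the members and 0.0074 for genes above percentile 60, and 5 members instead of 9 were higher at an unadjusted limma p under 0.05. The part of brightness in the single fold changes was not tested further.

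**Figure D4:**
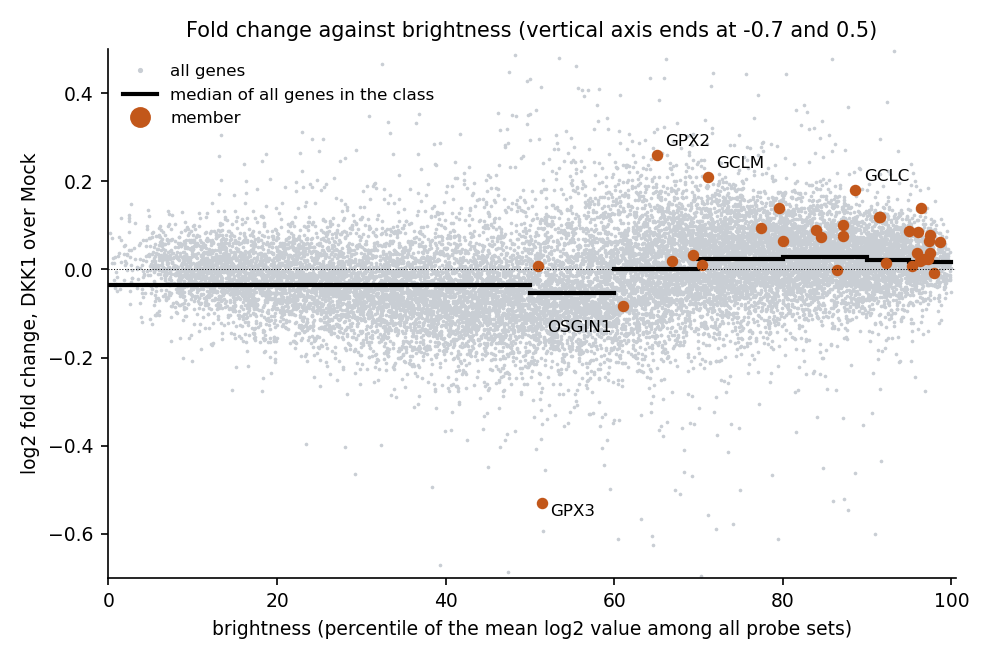
Fold change of the DKK1 cells over the Mock cells on the log2 scale (vertical axis) against brightness, the percentile of the mean log2 value among all probe sets (horizontal axis), with grey points for genes, orange points for the 33 members and black bars for the median of all genes in a class. The bars run from -0.054 to 0.028, and the members above percentile 70 lie mostly above them.

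Genes linked to the same pathway that are not members were taken from a separate list of 55, of which 49 were measured. With limma 0 passed an adjusted p of 0.05, and at an unadjusted p under 0.05 there were 4 of 49 higher and 0 lower. At that unadjusted p, 4.02% of all probe sets and 7.15% of the bright genes were higher, and 5.21% of all probe sets lower. SESN3, a stress-induced sestrin, read 9.17, 9.09 and 9.14 in DLD-1/Mock and 9.31, 9.38 and 9.39 in DLD-1/DKK1. The log2 fold change of SESN3 was 0.22 (SE 0.04; limma adjusted p = 0.276), and the related SESN2 had 0.14. IDH2, the mitochondrial isocitrate dehydrogenase that makes NADPH, read 10.97, 11.07 and 10.94 against 11.18, 11.24 and 11.23, a difference of 0.22 on the log2 scale (SE 0.05; adjusted p = 0.328 by limma), and its cytosolic relative IDH1 had 0.091. In the whole list 33 of the 49 genes were above 0, against 46.9% of all probe sets and 61.7% of the bright genes. The median of the list was 0.019, beside 0.020 for the bright genes. The summed linear level of the list was 70900 to 71200 in DLD-1/Mock and 73100 to 73800 in DLD-1/DKK1. Such a sum gives most weight to the brightest genes, which reach percentile 99.8 in this list. No sum over other bright genes was taken for comparison.

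Several transcripts of the set have near-identical copies in the genome, FTL and TXN among them, and the probe sequences were not used here, so signal from such copies cannot be told apart.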

How the data were processed

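Affymetrix Human Gene 1.0 ST arrays measured RNA of 6 dishes, 3 per group. The deposited log2 values are the authors' output of robust multichip averaging in R, which corrects background, equalises distributions and summarises probes. Much of a change shared by most transcripts is therefore removed, and differences of dim genes are compressed. The medians of the deposited arrays still ranged from 6.76 to 6.86. The sources used here gave neither the authors' tool versions nor the build of the annotation.

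Groups came from the sample titles. Of the probe sets, 19158 were paired with 1 gene symbol, 1388 with several and 11775 with none, and only the first kind was named, with symbols updated through the gene number to GRCh38.p14. All probe sets were fitted with limma 3.58.1 in R 4.3.3 (lmFit and eBayes, DKK1 minus Mock cells, two-sided test, 4 residual and 2.56 prior degrees of freedom) and adjusted by Benjamini-Hochberg, with a threshold of 0.05 and intervals at 95%. Members and lists were chosen with earlier results of these data known. Per-array values are given for members with an unadjusted p under 0.05 and, chosen after their values were seen, for NFE2L2 and in part for SLC7A11 and HMOX1, and other members by estimate. The fit was tested on simulated data. Promoters are RefSeq sequences of GRCh38.p14. Results were recomputed with quantile normalisation or median centring, without dim or unannotated probe sets, with a trended and robust prior, without moderation, with array weights, with a replicate block, without each array, and with the mean of a gene's probe sets. Cyclic loess was chosen after seeing the data. The number of arrays limits the precision. Figures were drawn with matplotlib 3.10.9.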

Additional observations from a re-analysis of the deposited data

How the results depend on the processing

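GPX3 kept its direction under all 16 alternatives (-0.57 to -0.48) and passed in 5 of them, with limma adjusted p values of 0.00983 to 0.378. Its log2 fold change of -0.53 could not move when dim or unannotated probe sets were left out or a gene's probe sets averaged. Nor could it move with the trended and robust prior, without moderation or with the replicate block. The number of members called was 0 after quantile normalisation (GPX3 -0.48), cyclic loess (-0.49), median centring (-0.48), without moderation (-0.53), with the replicate block (-0.53) and with any array left out (0 to 0, GPX3 -0.57 to -0.49). Members higher at an unadjusted p under 0.05 numbered 5 after cyclic loess, 16 after median centring, 14 without moderation, 4 with the replicate block and 3 to 7 with 1 array left out, being 5 without Mock 3 and 3 without the first or the second DLD-1/DKK1 array. Among the 16 alternatives, DKK1 missed the threshold in the fit without moderation (7.05, limma adjusted p = 0.0646) and passed in the other 15.

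Replicate numbers are not stated to pair dishes. Deviations of same-numbered arrays correlated at 0.105, 0.00821 and -0.137, and 1 of the 6 arrays correlated best with its own number, so the paired fit is only an alternative.

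Medians moved as follows. Quantile normalisation gave 0.073 for thioredoxin genes and 0.044 each for peroxidases and for superoxide dismutases with catalase. Cyclic loess gave 0.048 for all members, 0.071 for thioredoxin genes, 0.045 for peroxidases and 0.0099 for NADPH genes. Median centring, which moved the median of all probe sets to 0.046, gave 0.12 for all members, 0.067 for regulators, 0.17 for glutathione, 0.14 for thioredoxin, 0.12 for peroxidase, 0.082 for NADPH, 0.11 for quinone, haem and iron and 0.12 for superoxide and catalase genes. Array weights gave 0.050 for peroxidases, which had 0.037 to 0.072 with 1 array left out. Averaging the probe sets of a gene gave 0.038 for all members and 0.027 for peroxidases. In the 14 alternatives for which both were computed, the members' median exceeded that of genes above percentile 60 by 0.034 to 0.057. The difference of 0.044 in the main fit could not move with annotated probe sets, another prior, no moderation or the replicate block. Median centring, which shifts all genes of an array alike, could not move it either.

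Of the 33 members, 22 kept their sign throughout, though the alternatives that changed only the test or the probe sets fitted could not alter a sign. The other 11 had never passed. NFE2L2 turned to -0.0044 after quantile normalisation and -0.0065 after cyclic loess, SOD1 to -0.0053, -0.013 and, with array weights, -0.0072, TKT to -0.00063 after cyclic loess, KEAP1 to 0.052 and GPX4 to 0.044 after median centring, KEAP1 to 0.011, BACH1 to -0.0079 and MAFF to -0.0060 with array weights, and MAFG to -0.038 as the mean of its probe sets. With 1 array left out, BACH1 ran from -0.052 to 0.083, HMOX1 from -0.026 to 0.070, KEAP1 from -0.057 to 0.045, MAFF from -0.013 to 0.025, PRDX2 from -0.011 to 0.029, PRDX6 from -0.021 to 0.058 and SOD1 from -0.0063 to 0.027. Leaving out an array leaves less data by construction; beyond that the cause was not tested.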
